A study of Mus musculus with 18 samples.

Results

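The genes described here are the mouse cytochrome P450 genes of families 1, 2 and 3, followed in liver RNA-seq of young male mice given a high-fat diet and streptozotocin. They were chosen by symbol alone, as every row of the expression table whose symbol is Cyp followed by the family 1, 2 or 3, a single subfamily letter and a gene number. The rule took 57 of 19057 listed genes, and no expression value was used. Of 101 symbols that start with Cyp, Cyp2ab1, Cyp3a41a and Cyp3a41b belong to these families but have another form of name and were not members. The subfamilies Cyp2a, Cyp2b, Cyp2c, Cyp2d and Cyp3a held 4, 5, 15, 8 and 7 members.

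The study asked whether gut microbiota changed by alginate oligosaccharide (AOS), a short sugar chain from seaweed alginate, alters young type 2 diabetes in mice. All mice were 10-week-old ICR animals, an outbred stock, and each of the 6 groups had 3 liver libraries. The Con group had a regular diet with saline, the A10 group had AOS at 10 mg/kg, the HS group had the high-fat diet and the beta cell toxin streptozotocin (STZ), and the HS+A10 group had the diet, STZ and AOS at 10 mg/kg. The A10-FMT and Con-FMT groups had the diet and STZ followed by fecal microbiota transplantation (FMT) of pooled small intestinal content from AOS-dosed or water-dosed donor mice. The HS+A10 group is known from the sample labels only. The study's methods describe AOS-dosed donor mice under the name A10, and whether the A10 libraries came from such mice is not given in the sources used here. The labels do not say that the libraries of a group came from separate animals, so the p-values measure the spread between these libraries. Libraries are named by group and number, such as Con 3.

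Cytochromes P450 are heme enzymes, and those of families 1 to 3 sit mostly in the endoplasmic reticulum of hepatocytes, where they oxidize drugs, toxins, steroids, fatty acids and bile acids with electrons passed on by cytochrome P450 reductase (Por). The genes are known targets of ligand-activated receptors, namely AHR for family 1, and CAR (Nr1i3) and PXR (Nr1i2) for Cyp2b, Cyp2c and Cyp3a genes. In mouse liver many of them differ between the sexes under the control of growth hormone, and some follow the circadian clock.

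Expression was given in RPKM (reads per kilobase, scaled to the library's mapped reads), a level per gene length, so levels may be set beside each other between genes. Changes are differences of log2(RPKM + 1), which understate the change of genes near 1 RPKM. A gene was tested when its mean over all libraries was at least 1 RPKM, which held for 10204 genes and for 38 of the 57 members, and it was called at an adjusted p under 0.05 in limma over all tested genes. In bulk liver, fewer cells of a type and less RNA per cell cannot be told apart.

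Some libraries stood apart. Con 3 lay between Con 1 and Con 2 for 138 of the 140 genes in which these differed by at least 1 on the log2 scale (98.57%), and A10 3 lay between the other A10 libraries for 130 of 135 (96.3%), against 54.9% to 74.56% for the libraries of the other 4 groups. Among the tested members Con 3 lay between the others for 32 of 38 and A10 3 for 30 of 38. In Con-FMT 3 the 8 pancreatic acinar markers summed to 2.045% of all RPKM, against at most 0.0067% in any other library. The cause of either was not tested, and counts are therefore given also without Con 3, A10 3 and Con-FMT 3, a choice made after seeing the data. The 6 hepatocyte markers were listed above 0 in every library. Summed markers of some other cell types differed between groups. The 5 stellate cell markers, all listed, summed to 74.6 to 91.3 RPKM in Con and 134 to 175 in HS, the 4 erythroid markers to 1142 to 1855 RPKM in Con and 2808 to 9923 in HS, and the 6 Kupffer cell markers to 57.01 to 99.9 RPKM in HS and 38.7 to 48.0 in A10-FMT. Their part in the results was not tested. RPKM sums were 692818 to 806937 per library and relative depths 0.955 to 1.08, while the number of reads is unknown.

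The members lie mostly in gene clusters. In the mm10 assembly all 8 Cyp2d members lie on chromosome 15, all 15 Cyp2c members on chromosome 19, all 7 Cyp2j members on chromosome 4 and the 7 Cyp3a members on chromosome 5, while chromosome 7 holds 15 members, among them Cyp2a, Cyp2b, Cyp2e1, Cyp2f2 and Cyp2r1. Some neighbours are near-copies. In 28 of the 57 members over 10% of the 50-base stretches of the transcript also occur in another gene. This share was 72.12% for Cyp2c40, 40.84% for Cyp2a5, 39.84% for Cyp2d10, 26.45% for Cyp3a44, 20.04% for Cyp2b13 and 14.77% for Cyp3a11. It was 2.08% for Cyp2c29, 0.34% for Cyp2e1, and 0% for Cyp2c70, Cyp2r1, Cyp2u1, Cyp2f2, Cyp2j9 and Cyp3a13. In the study's methods the aligner's option for reads with repeated hits was set to 2, and how such reads were then divided between genes is not given in the sources used here, so the values of the sharing members are uncertain.

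Promoter sequences (250 bases before to 50 after the start site, RefSeq, GRCm38.p6) were found for 50 of the 57 members. The promoters of the near-copies Cyp2b9 and Cyp2b13 are shown because both genes had their highest levels in the same group, HS+A10. Over the 250 bases before the start site 248 were identical, and the 2 that differ are in capitals. They lie at chr7:26173159-26173408 for Cyp2b9 and chr7:26061245-26061494 for Cyp2b13, both on the plus strand, with the gene beginning just downstream.
Cyp2b9: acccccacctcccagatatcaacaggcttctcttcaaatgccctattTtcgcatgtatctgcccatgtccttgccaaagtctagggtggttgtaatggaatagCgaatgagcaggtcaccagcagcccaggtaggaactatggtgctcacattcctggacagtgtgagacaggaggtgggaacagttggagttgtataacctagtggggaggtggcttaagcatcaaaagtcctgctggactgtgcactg
Cyp2b13: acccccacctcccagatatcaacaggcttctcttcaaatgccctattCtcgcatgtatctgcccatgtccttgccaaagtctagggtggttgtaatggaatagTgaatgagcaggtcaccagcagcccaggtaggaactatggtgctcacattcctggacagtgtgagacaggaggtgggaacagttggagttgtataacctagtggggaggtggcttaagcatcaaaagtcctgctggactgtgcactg

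The promoters of Cyp2a5 and Cyp2a4 are shown because these near-copies had their highest mean levels in different groups, Cyp2a5 in A10-FMT and Cyp2a4 in A10. The A10 libraries of Cyp2a4 held 31.1, 1.99 and 10.8 RPKM, and Cyp2a4 was called in no comparison. Any link between these bases and the levels was not tested. Of 210 aligned bases 206 were identical, with the 4 differences in capitals. They lie at chr7:26835089-26835298 for Cyp2a5 and chr7:26306943-26307152 for Cyp2a4, on the plus strand and upstream of the coding exons.
Cyp2a5: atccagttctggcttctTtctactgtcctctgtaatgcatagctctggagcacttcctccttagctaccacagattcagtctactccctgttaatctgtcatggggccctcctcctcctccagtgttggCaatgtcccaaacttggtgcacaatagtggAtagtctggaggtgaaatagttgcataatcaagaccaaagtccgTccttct
Cyp2a4: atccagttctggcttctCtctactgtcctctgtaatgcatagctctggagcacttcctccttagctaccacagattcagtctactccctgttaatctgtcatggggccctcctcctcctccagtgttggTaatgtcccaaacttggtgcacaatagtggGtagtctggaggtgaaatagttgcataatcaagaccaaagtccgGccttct

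Of 10 motifs searched on both strands, the one with the highest ratio of its share in the members to its share in all promoters was CAAAGTCCA, a sequence bound by the liver factor HNF4. It was found in 8 of 50 member promoters (16%) and in 0.477% of 27025 promoters of the same length. The neighbourhood of each match is shown, with the motif in capitals, since Cyp2c70, Cyp2c67, Cyp2c68, Cyp2c40 and Cyp3a11 are among the genes described below. The promoters of Cyp2c68 and Cyp2c69 (91.12% identical), Cyp2c40 and Cyp2c69 (80.91%), Cyp2c67 and Cyp2c69 (66.29%) and Cyp3a11 and Cyp3a16 (75.48%) are alike and not independent instances, while Cyp2c70 and Cyp2c65 are at most 50.76% and 51.4% identical to the other Cyp2c promoters with the motif.
Cyp2c40: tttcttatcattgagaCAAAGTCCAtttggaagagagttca
Cyp2c67: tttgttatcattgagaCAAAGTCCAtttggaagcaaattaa
Cyp2c68: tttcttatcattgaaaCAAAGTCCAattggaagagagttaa
Cyp2c69: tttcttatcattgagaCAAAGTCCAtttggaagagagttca
Cyp2c65: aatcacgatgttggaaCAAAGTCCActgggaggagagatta
Cyp2c70: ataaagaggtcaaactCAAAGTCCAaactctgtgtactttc
Cyp3a11: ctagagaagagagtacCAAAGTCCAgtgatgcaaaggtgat
Cyp3a16: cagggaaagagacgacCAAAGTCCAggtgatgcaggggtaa

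Counted from the RefSeq start site, the match began at position -45 in Cyp2c40, -125 in Cyp2c67, -77 in Cyp2c68, -75 in Cyp2c69, -116 in Cyp2c65, -64 in Cyp2c70, -109 in Cyp3a11 and -99 in Cyp3a16. TATAAA, the TATA box, was found in 25 of the 50 (50%, against 14.2% of all promoters), and GCGTG, the core of the AHR site, in 9 (18% against 32.5%). AGTTCA, a hexamer bound by CAR and PXR, occurred in 5 (10.0% against 14.0%) and TTCNNNGAA, bound by STAT5, in 2 (4.0% against 8.47%). The clock-controlled D-box (TTATGTAA or TTACGTAA), an HNF1 motif, a DR1 motif and the C/EBP motif TTGCGCAA were in 0 of the 50, against 0.955%, 0.107%, 0.0074%, 0.0444% and 0.185% of all promoters in that order. No match overlapped a match of another motif. A match describes letters only, and the absence of one says nothing about binding elsewhere.

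Cyp2e1 and the Cyp3a, Cyp2d and Cyp2c subfamilies made up most of the members' RNA. All members together summed to 11633 ± 1652 RPKM in Con (mean ± SD, n = 3), 13654 ± 448 in A10, 11837 ± 1106 in HS, 14448 ± 948 in HS+A10, 13546 ± 825 in A10-FMT, while Con-FMT had 12818 ± 1278. These ranges overlapped in many pairs of groups, and the sums were not tested. The composition differed more than the total. Cyp2e1 took 18.7% of the members' RPKM in Con, 19.6% in A10 and 30.4% in HS, against 40.4%, 45.5% and 41.4% in HS+A10, A10-FMT and Con-FMT.

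**Figure D1:**
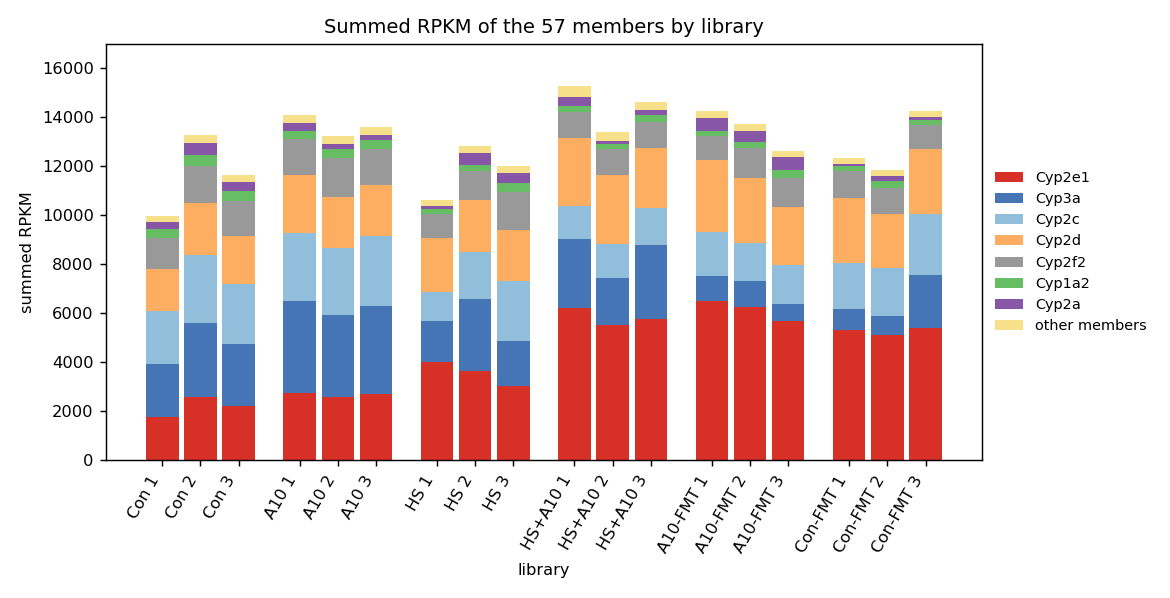
Stacked bars give the summed RPKM of the 57 members in each of the 18 libraries, split into Cyp2e1, the Cyp3a, Cyp2c, Cyp2d and Cyp2a subfamilies, Cyp2f2, Cyp1a2 and all other members. The Cyp2e1 segment spans 1755 to 2750 RPKM in the Con and A10 libraries and 5125 to 6513 RPKM in the HS+A10, A10-FMT and Con-FMT libraries, and the Cyp3a segment is shortest in A10-FMT and in Con-FMT 1 and 2.

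The subfamilies followed different courses over the groups. Summed Cyp3a RNA was 2580 ± 427 RPKM in Con, 3583 ± 204 in A10, 2157 ± 687 in HS and 2594 ± 576 in HS+A10, but 906 ± 204 in A10-FMT, while Con-FMT had 1276 ± 786. Summed Cyp2c RNA was 2460 ± 309 in Con, 2780 ± 62.4 in A10, 1857 ± 634 in HS, 1405 ± 94.1 in HS+A10, 1647 ± 126 in A10-FMT, while Con-FMT had 2097 ± 351. With Cyp2c29 and Cyp2c70 left out the Cyp2c group means were only 991 to 1330 RPKM, so most of the difference between the group means lay in these 2 genes.

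Summed Cyp2d RNA ranged from 1930 ± 210 in Con to 2671 ± 222 in HS+A10 and 2668 ± 271 in A10-FMT. Cyp2a RNA was 499 ± 46.0 in A10-FMT, while Con-FMT had 124 ± 48.2, with the other group means between them. Cyp2b RNA was low everywhere and highest in HS+A10 (122 ± 72.8, against 20.57 ± 14.985 in HS and 6.48 ± 5.13 in Con). No test was made on sums, which are led by their most abundant genes.

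Over the 6 groups, limma's moderated F-test called 28 of the 38 tested members, or 73.7%, against 56.1% of all tested genes. By subfamily these were 3 of 4 Cyp2a, 2 of 3 Cyp2b, 9 of 11 Cyp2c, 2 of 7 Cyp2d and 5 of 5 Cyp3a members. Without Con 3, A10 3 and Con-FMT 3, 19 members and 39.5% of all genes were called. The smallest adjusted p-values belonged to Cyp3a59 (2.03e-06), Cyp2e1 (3.11e-06), Cyp2r1 (4.03e-05) and Cyp2c70 (8.04e-05).

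HS differed from Con in 8 members, 5 higher and 3 lower, where 17.7% of all tested genes were called (15.9% higher, 1.87% lower). In A10 against Con 1 member was called, Cyp3a59, where 0.0686% of genes were called (0.049% higher, 0.0196% lower). In HS+A10 against HS 5 members were called, 3 higher and 2 lower (7.32% of genes, 2.95% higher and 4.37% lower). A10-FMT differed from HS in 7 members, 4 higher and 3 lower (23.1% of genes, 2.09% higher and 21% lower). Con-FMT differed from HS in 8, 2 higher and 6 lower (23.6%, 4.61% higher and 19% lower). In A10-FMT against Con-FMT 6 members were called, 4 higher and 2 lower (18.8%, 6.72% higher and 12% lower).

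The largest counts were reached in comparisons against Con or A10. HS+A10 differed from A10 in 15 of 38 members, or 39.5%, 7 higher and 8 lower, where 20.9% of genes were called (13.6% higher, 7.28% lower). A10-FMT differed from Con in 11 members, 3 higher and 8 lower (14.3%, 6.72% higher and 7.62% lower). Con-FMT differed from Con in 16, 7 higher and 9 lower (25.8%, 14.4% higher and 11.5% lower). The 4 comparisons against Con share the Con libraries and 4 use the HS libraries, so their results are not independent.

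The members' share of 21.1% in HS against Con was near the background, and the shares of 18.4%, 21.1% and 15.8% in A10-FMT against HS, Con-FMT against HS and A10-FMT against Con-FMT were below it. It was 13.2% in HS+A10 against HS, 28.9% in A10-FMT against Con and 42.1% in Con-FMT against Con. An unadjusted p under 0.05 was reached by 12 members in HS against Con (34.4% of genes), 11 in A10 against Con (13.9%), 13 in HS+A10 against HS (24.9%), 12 in A10-FMT against HS (38.8%), 9 in Con-FMT against HS (36.1%) and 9 in A10-FMT against Con-FMT (32.5%).

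The interaction, which asks whether the HS effect differed with AOS dosing, called 0 members in limma, with 9 at an unadjusted p under 0.05 (12.9% of genes) and a smallest adjusted p of 0.134 (0.0098% of genes were called).

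In the same order of comparisons, from HS against Con to Con-FMT against Con, the counts without Con 3, A10 3 and Con-FMT 3 were 4, 0, 2, 5, 4, 4, 9, 10 and 6, where 7.1%, 0%, 3.69%, 18.7%, 17%, 11.7%, 11.8%, 6.35% and 13.1% of genes were called. Single libraries moved the count of HS+A10 against HS most, from 5 to 12 without HS 1, to 2 without HS 2, HS+A10 1 or HS+A10 2, and to 1 without HS 3. The A10-FMT against HS count fell to 4 without HS 2 or without A10-FMT 2. The Con-FMT against HS count was 5 without Con-FMT 2, and Cyp3a59 in A10 against Con was lost without Con 1, Con 3 or A10 3 (count of 0).

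The median change over all tested genes was 0.14 in HS against Con, -0.16 in A10-FMT against HS and -0.12 in Con-FMT against HS, and lay within 0.1 of 0 in the other 6 comparisons. With libraries scaled to equal medians, the higher calls over all genes were 398 of 884 rather than 1618 of 1809 in HS against Con, 639 of 1155 rather than 213 of 2358 in A10-FMT against HS, 858 of 2098 rather than 470 of 2413 in Con-FMT against HS and 579 of 935 rather than 301 of 747 in HS+A10 against HS. The same scaling gave 1302 of 2260 rather than 686 of 1914 in A10-FMT against Con-FMT, 1243 of 2394 rather than 1388 of 2131 in HS+A10 against A10, and 1258 of 2983 rather than 1465 of 2637 in Con-FMT against Con. Among the members it gave 4 higher and 4 lower calls in HS against Con, 5 and 2 in HS+A10 against HS, 6 and 3 in A10-FMT against HS, 3 and 5 in Con-FMT against HS, 6 and 2 in A10-FMT against Con-FMT, 7 and 9 in HS+A10 against A10, 7 and 8 in A10-FMT against Con and 6 and 9 in Con-FMT against Con. Quantile normalization moved each of these splits over all genes in the same direction. Scaling without the 10 most abundant genes gave 1149 of 1682 higher calls over all genes in A10-FMT against Con, rather than 686 of 1464, with 10 higher and 6 lower calls among the members. It gave 461 of 744 in HS+A10 against HS, 1005 of 1858 in A10-FMT against Con-FMT and 1826 of 2425 in HS+A10 against A10. None of the 77 called changes of a member reversed under these scalings.

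**Figure D2:**
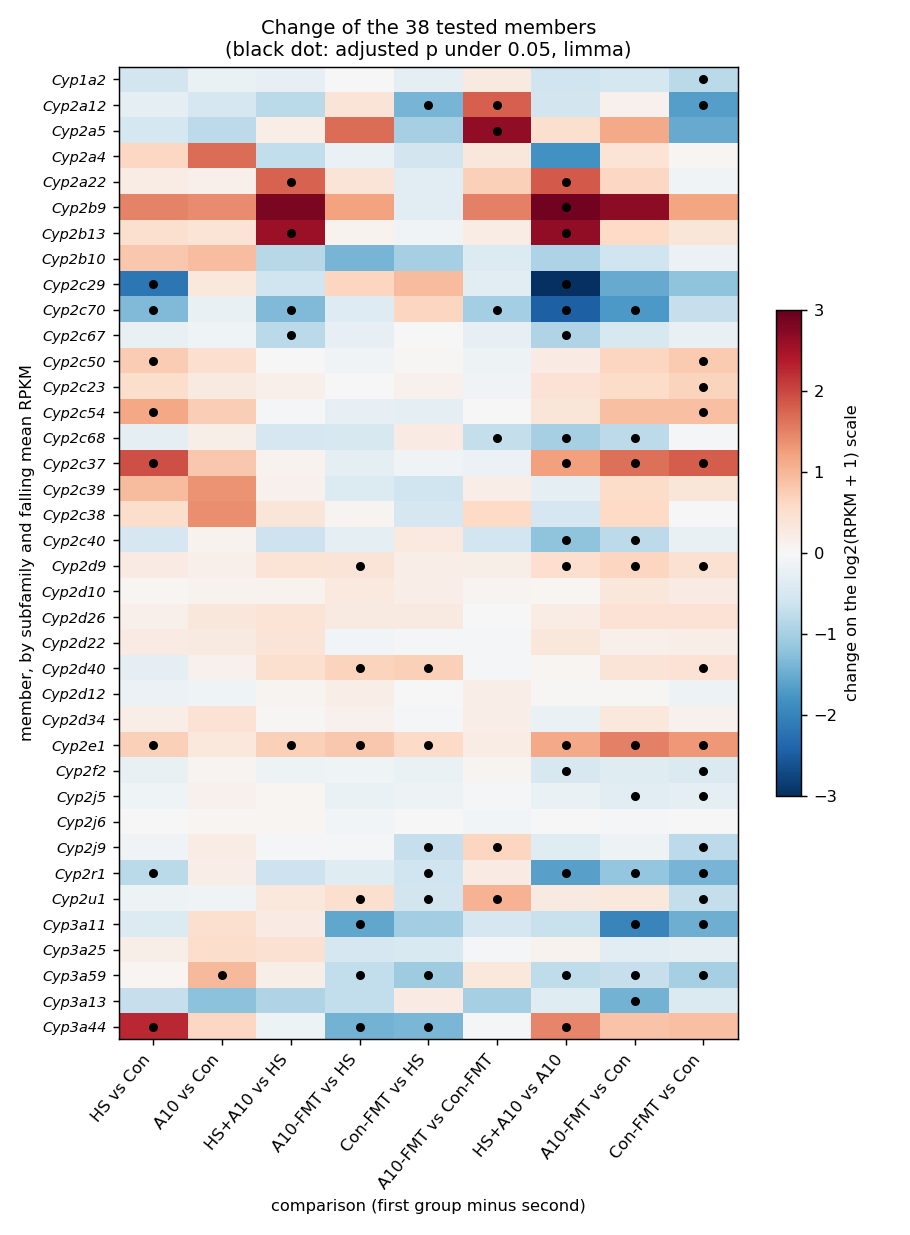
Colours give the change on the log2(RPKM + 1) scale of the 38 tested members (rows, by subfamily and falling mean) in 9 comparisons (columns, first group minus second), and black dots mark an adjusted p under 0.05 in limma. Cyp2e1 is called in 7 of the comparisons, each time higher in the first group, while Cyp2c70 and Cyp2r1 are called lower in 5 each.

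Cyp2e1, the ethanol- and acetone-oxidizing P450 of centrilobular hepatocytes and a gene known to respond to diabetes and fasting, was the most abundant member in every group except A10 and was called higher in 7 of the 9 comparisons. Its levels were 1755, 2572 and 2221 RPKM in Con 1 to 3, 2750, 2570 and 2697 in A10, and 4010, 3650 and 3014 in HS. They were 6236, 5515 and 5775 in HS+A10, 6513, 6274 and 5701 in A10-FMT, while Con-FMT held 5319, 5125 and 5386. Every HS library lay above every Con and A10 library, and every HS+A10, A10-FMT and Con-FMT library lay above every HS library.

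The rise of Cyp2e1 in HS against Con was 0.71 on the log2 scale (SE 0.13, adjusted p = 0.00273, limma). Against HS it rose further by 0.72 in HS+A10 (adjusted p = 0.00562), by 0.80 in A10-FMT (0.00119) and by 0.58 in Con-FMT (0.00525). These steps set both transplanted groups and the AOS-dosed group farther from Con, not nearer to it. A10-FMT exceeded Con by 1.51 (adjusted p = 9.58e-06), Con-FMT exceeded Con by 1.29 (7.70e-06) and HS+A10 exceeded A10 by 1.13 (6.23e-05). All 7 calls remained with each library left out in turn, with a highest adjusted p of 0.0373, and without Con 3, A10 3 and Con-FMT 3.

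**Figure D3:**
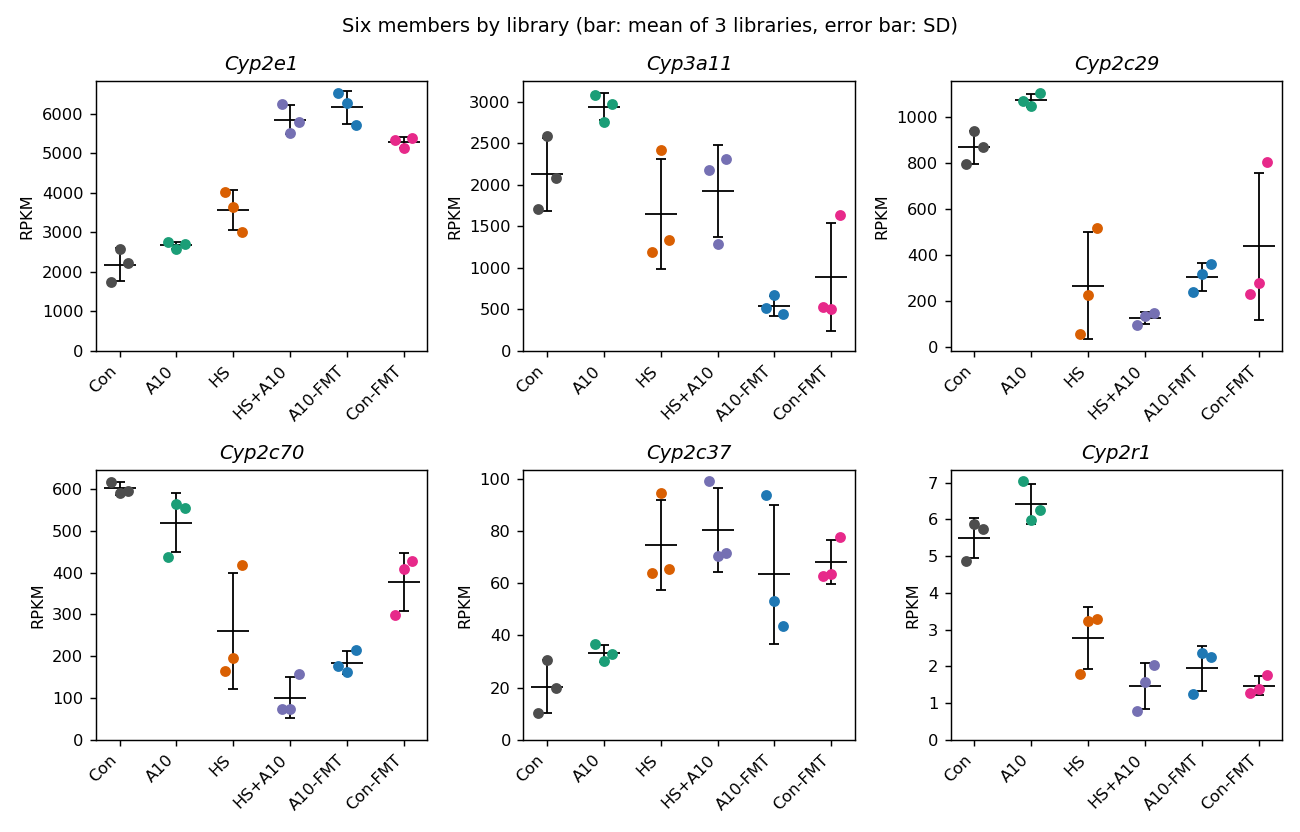
Points give the RPKM of Cyp2e1, Cyp3a11, Cyp2c29, Cyp2c70, Cyp2c37 and Cyp2r1 in each of the 3 libraries of the 6 groups, with horizontal bars at the group means and error bars of 1 SD (n = 3). Cyp2e1 forms 3 tiers, Cyp3a11 is lowest in A10-FMT, and the 3 HS libraries are spread widely for Cyp2c29 (60.2 to 516 RPKM).

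Of the 5 tested Cyp3a members, which oxidize many drugs, steroids and bile acids, 0 were called in HS+A10 against HS, 3 fell in A10-FMT against HS (Cyp3a11, Cyp3a44 and Cyp3a59) and 2 fell in Con-FMT against HS (Cyp3a44 and Cyp3a59). In HS+A10 against HS 7.32% of all tested genes were called, 2.95% higher and 4.37% lower. Over all tested genes 21% fell in A10-FMT against HS and 19% in Con-FMT against HS. The median change of the 5 was -0.73 in A10-FMT against HS and -1.04 in Con-FMT against HS, beside -0.16 and -0.12 over all tested genes. In HS+A10 against HS, where limma called 0 of the 5, 1 passed an unadjusted p under 0.05.

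Cyp3a11, the main adult Cyp3a enzyme of mouse liver and the standard target gene of PXR, stood at 1710, 2585 and 2082 RPKM in Con and at 3085, 2759 and 2973 in A10. In HS it was 1195, 2413 and 1340 and in HS+A10 2172, 1284 and 2308. It was 516, 668 and 440 in A10-FMT, and Con-FMT held 533, 503 and 1640. The 3 A10-FMT libraries lay below every library of Con, A10, HS and HS+A10, whereas Con-FMT 3, the library with the acinar markers, lay apart from Con-FMT 1 and 2 and within the range of HS.

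A10-FMT was lower than HS by -1.55 on the log2 scale for Cyp3a11 (SE 0.38, adjusted p = 0.0105). That call was lost without HS 2 (adjusted p = 0.0505). Cyp3a11 was also lower than in Con, by -1.97 in A10-FMT (adjusted p = 0.0035, at most 0.0168 with a library left out) and by -1.46 in Con-FMT (0.0108). The last of these was lost without Con-FMT 1 (adjusted p = 0.0521). Without Con 3, A10 3 and Con-FMT 3 the difference from Con was -2.02 in Con-FMT (adjusted p = 0.00323), and Con-FMT against HS was called as well (adjusted p = 0.00701).

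Cyp3a59, a near-copy of Cyp3a25, had the smallest adjusted p of all members over the 6 groups. It was 15.8, 17.04 and 17.8 RPKM in Con, 33.0, 33.9 and 35.4 in A10, and 19.9, 16.99 and 15.9 in HS. It was 20.6, 16.03 and 23.4 in HS+A10, 12.5, 9.96 and 8.35 in A10-FMT, while Con-FMT held 7.31, 7.85 and 8.61. The A10 libraries lay above all others and those of both FMT groups below all others.

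Cyp3a59 was higher in A10 than in Con by 0.97 (SE 0.13, adjusted p = 0.0134), and this was the 1 member called in that comparison. The call was lost without Con 1 (adjusted p = 0.140), Con 3 (0.0634) or A10 3 (0.0776), and its adjusted p was 0.306 without the 3 libraries that stood apart. Against HS it fell by 0.73 in A10-FMT (adjusted p = 0.00231) and by 1.06 in Con-FMT (0.00012), and against Con by 0.68 (0.00396) and 1.01 (9.76e-05). HS+A10 lay below A10 by 0.76 (0.00131). These 5 calls remained with each library left out in turn, and 27.98% of the transcript's 50-base stretches are shared, mostly with Cyp3a25.

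Cyp3a25 itself, the second most abundant Cyp3a gene, was called over the 6 groups (adjusted p = 0.00842) but in none of the 9 comparisons. Its group means were 410.5 ± 11.2 RPKM in Con, 597 ± 39.2 in A10 and 467 ± 19.7 in HS. In HS+A10, A10-FMT and Con-FMT they were 639 ± 43.4, 343 ± 125 and 352 ± 124. Cyp3a13, an extrahepatic and intestinal Cyp3a form, was 27.0, 23.4 and 27.3 RPKM in Con and 7.44, 14.2 and 6.80 in A10-FMT. Its low level was not particular to A10-FMT, with 12.1, 8.95 and 10.4 RPKM in A10 and 8.90, 6.92 and 8.02 in HS+A10. HS held 14.7, 24.2 and 10.5 RPKM of Cyp3a13 and Con-FMT 11.5, 13.5 and 41.7. It fell by 1.42 in A10-FMT against Con (adjusted p = 0.0201), a call lost without Con 1, Con 3, A10-FMT 1 or A10-FMT 3 (adjusted p up to 0.0737).

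Cyp3a44, a Cyp3a form known as female-biased, rose in HS. It was 0.59, 0.30 and 0.50 RPKM in Con and 5.60, 5.43 and 7.03 in HS, and the other group means lay between. The rise was 2.26 (SE 0.37, adjusted p = 0.00144, at most 0.00723 with a library left out). Against HS it was lower by -1.41 in A10-FMT, where the libraries held 4.66, 0.84 and 0.75 RPKM (adjusted p = 0.0152), and by -1.36 in Con-FMT with 1.83, 1.45 and 1.91 RPKM (0.0158). The first was lost without HS 3, A10-FMT 2 or A10-FMT 3 (adjusted p up to 0.0768) and the second without HS 3 or Con-FMT 2 (up to 0.0516).

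HS+A10 held 4.26, 4.38 and 7.59 RPKM of Cyp3a44 against 0.37, 2.15 and 1.65 in A10, a difference of 1.47 (adjusted p = 0.0114). It was lost without A10 1 or HS+A10 3 (adjusted p up to 0.0559).

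The Cyp2c members, which include epoxygenases of arachidonic acid, a bile acid hydroxylase and drug-oxidizing enzymes, moved both ways within 1 comparison. Of 11 tested, 3 rose and 2 fell in HS against Con, with a median change of 0.52 beside 0.14 over all tested genes. Of all tested genes 15.9% rose and 1.87% fell there. In HS+A10 against A10, 1 rose and 5 fell (median -0.51, beside 0.04), where 13.6% of all tested genes rose and 7.28% fell. In both FMT groups against HS limma called 0 of the 11, with 1 and 0 at an unadjusted p under 0.05. Of all tested genes 23.1% were called in A10-FMT against HS and 23.6% in Con-FMT against HS.

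Cyp2c29, a CAR target and arachidonic acid epoxygenase, was the most abundant Cyp2c gene in Con with 794, 938 and 870 RPKM. It was 1070, 1046 and 1103 in A10, 60.2, 229 and 516 in HS and 99.2, 137 and 151 in HS+A10. It was 240, 318 and 360 in A10-FMT, while Con-FMT held 231, 279 and 805. All HS, HS+A10 and A10-FMT libraries lay below all Con and A10 libraries, and Con-FMT 3 alone of the Con-FMT libraries reached the level of Con.

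For Cyp2c29 the fall was 2.16 in HS against Con (SE 0.56, adjusted p = 0.0175), lost without Con 3 alone (0.0515) and kept without the 3 libraries that stood apart (0.0486). The step from A10 to HS+A10 was -3.07 (SE 0.56, adjusted p = 0.00156), with a highest adjusted p of 0.00976 when a library was left out.

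Cyp2c70, the enzyme that makes muricholic acids, the bile acids typical of mice, fell in HS, HS+A10 and A10-FMT. Its levels were 618, 590 and 596 RPKM in Con, 438, 564 and 556 in A10 and 164, 196 and 419 in HS. They were 72.7, 73.3 and 156 in HS+A10, 176, 162 and 215 in A10-FMT, while Con-FMT held 299, 409 and 428. HS+A10 lay below every library of the other 5 groups.

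The change of Cyp2c70 was -1.33 in HS against Con (SE 0.31, adjusted p = 0.0109, at most 0.0435 with a library left out, and 0.0523 without the 3 libraries that stood apart). In HS+A10 against HS it was again -1.33 (adjusted p = 0.0207), lost without HS 3, HS+A10 1 or HS+A10 2 (up to 0.0999). A10-FMT lay below Con-FMT by -1.03 (adjusted p = 0.0311), lost without A10-FMT 1, A10-FMT 2, Con-FMT 2 or Con-FMT 3 (up to 0.104). The change was -2.44 in HS+A10 against A10 (0.000136) and -1.71 in A10-FMT against Con (0.00238), both kept with each library left out.

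Cyp2c37, Cyp2c50 and Cyp2c54, neighbouring epoxygenase genes with shared stretches, rose in HS. Cyp2c37 was 10.3, 30.6 and 19.9 RPKM in Con, 36.6, 30.0 and 32.9 in A10 and 64.1, 94.6 and 65.5 in HS. It was 99.1, 70.5 and 71.7 in HS+A10, 93.8, 53.4 and 43.5 in A10-FMT, while Con-FMT held 62.9, 63.6 and 77.9. All libraries of the 4 groups with the high-fat diet and STZ lay above all libraries of Con and A10.

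Cyp2c37 rose by 1.93 in HS against Con (SE 0.31, adjusted p = 0.00136), by 1.65 in A10-FMT against Con (0.00314), by 1.81 in Con-FMT against Con (0.000702) and by 1.24 in HS+A10 against A10 (0.0113). The last was lost without HS+A10 1 (0.0547), and the other 3 remained with each library left out in turn. For Cyp2c54 the rise was 1.16 in HS (adjusted p = 0.0169, lost without Con 1, HS 2 or HS 3, up to 0.0662) and 0.89 in Con-FMT against Con (0.0374, lost without Con 1, Con 3 or any Con-FMT library, up to 0.176).

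Cyp2c50 rose by 0.76 in HS, where the libraries overlapped with Con (adjusted p = 0.0308, lost without Con 1, Con 3, HS 2 or HS 3, up to 0.143), and by 0.78 in Con-FMT against Con (0.0173, lost without Con 1 or Con-FMT 3, up to 0.0875). Cyp2c23, another epoxygenase, had 329.78, 269 and 260 RPKM in Con-FMT against 131, 239 and 186 in Con. It rose by 0.66 (adjusted p = 0.0134, lost without Con 1 or Con-FMT 1, up to 0.0632).

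Cyp2c67, Cyp2c68 and Cyp2c40, which share 52.76%, 43.28% and 72.12% of their 50-base stretches with other genes, had their lowest mean levels in HS+A10. Cyp2c67 was 203, 406 and 423 RPKM in HS and 147, 211 and 209.54 in HS+A10, which overlap. Its difference was -0.81 (adjusted p = 0.0472), lost without HS 2, HS 3 or any HS+A10 library (up to 0.199). In HS+A10 against A10 it fell by 0.90 (0.0123, lost without HS+A10 1, 0.0659).

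Cyp2c68 was 79.6, 87.3 and 86.7 RPKM in A10 and 37.4, 45.3 and 43.3 in HS+A10. It fell by 1.00 in HS+A10 against A10 (adjusted p = 0.00178), by 0.78 in A10-FMT against Con (0.0117) and by 0.72 in A10-FMT against Con-FMT (0.014). The last was lost without A10-FMT 3 or Con-FMT 2 (up to 0.0624). Cyp2c40, female-biased, fell by 1.22 in HS+A10 against A10 (0.00226, at most 0.0156) and by 0.78 in A10-FMT against Con (0.0372). That call was lost without Con 2, Con 3 or any A10-FMT library (up to 0.127). Cyp2c39 and Cyp2c38, at group means of 25.1 to 66.4 and 9.02 to 25.5 RPKM, were called in no comparison.

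Within the Cyp2b subfamily, known for induction by phenobarbital through CAR and for female-biased forms, Cyp2b9 and Cyp2b13 stood out in HS+A10 and Cyp2b10 did not. Cyp2b13, female-biased, was 33.0, 7.48 and 3.12 RPKM in HS+A10 against 2.01, 0.48 and 0.26 in HS and 1.14, 0.27 and 0.76 in A10. Every HS+A10 library lay above every library of the other 5 groups. It rose by 2.57 against HS (SE 0.55, adjusted p = 0.0146) and by 2.65 against A10 (0.00338, at most 0.0189 with a library left out). The rise against HS was lost without HS 2 or HS 3 (up to 0.0662) and kept without the 3 libraries that stood apart (0.0395).

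Cyp2b9 was 158, 117 and 44.6 RPKM in HS+A10, 33.6, 11.4 and 4.59 in HS, 30.3, 3.96 and 12.4 in A10 and 0.92, 9.87 and 4.18 in Con. All HS+A10 libraries lay above all others, and libraries within a group differed several-fold. Against A10 it rose by 2.90 (SE 0.91, adjusted p = 0.0343), lost without A10 2, A10 3, HS+A10 1 or HS+A10 2 (up to 0.15). The difference from HS was 2.83 (SE 0.91, interval 0.90 to 4.76) and did not pass the test (adjusted p = 0.0684, 0.0298 without HS 1 and up to 0.240 without another library).

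Cyp2b10, the most strongly CAR-inducible Cyp2b gene, was called nowhere and was low, at 3.07, 0.53 and 0.55 RPKM in HS+A10 and 1.33, 5.26 and 2.72 in HS. The levels of the other CAR and PXR target genes went different ways. Cyp2c55, a further target of both receptors, was under the filter, at 0.60 to 1.44 RPKM in Con, 1.21 to 1.53 in A10 and at most 0.34 in the other 4 groups. A list of CAR and PXR targets had 5 tested genes, namely Cyp2b10, Cyp2c29, Cyp2c37, Cyp3a11 and Cyp3a13. In HS against Con 1 rose and 1 fell (over all tested genes 15.9% rose and 1.87% fell), and in A10-FMT against HS 1 fell (21%). Limma called 0 of them in HS+A10 or Con-FMT against HS, with 1 at an unadjusted p under 0.05 in each. In A10-FMT against Con 1 rose and 2 fell (6.72% and 7.62%). In HS+A10 against A10 1 rose and 1 fell (13.6% and 7.28%), as in Con-FMT against Con (14.4% and 11.5%). A10 against Con and A10-FMT against Con-FMT had 0 calls, with 2 and 1 at an unadjusted p under 0.05.

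**Figure D4:**
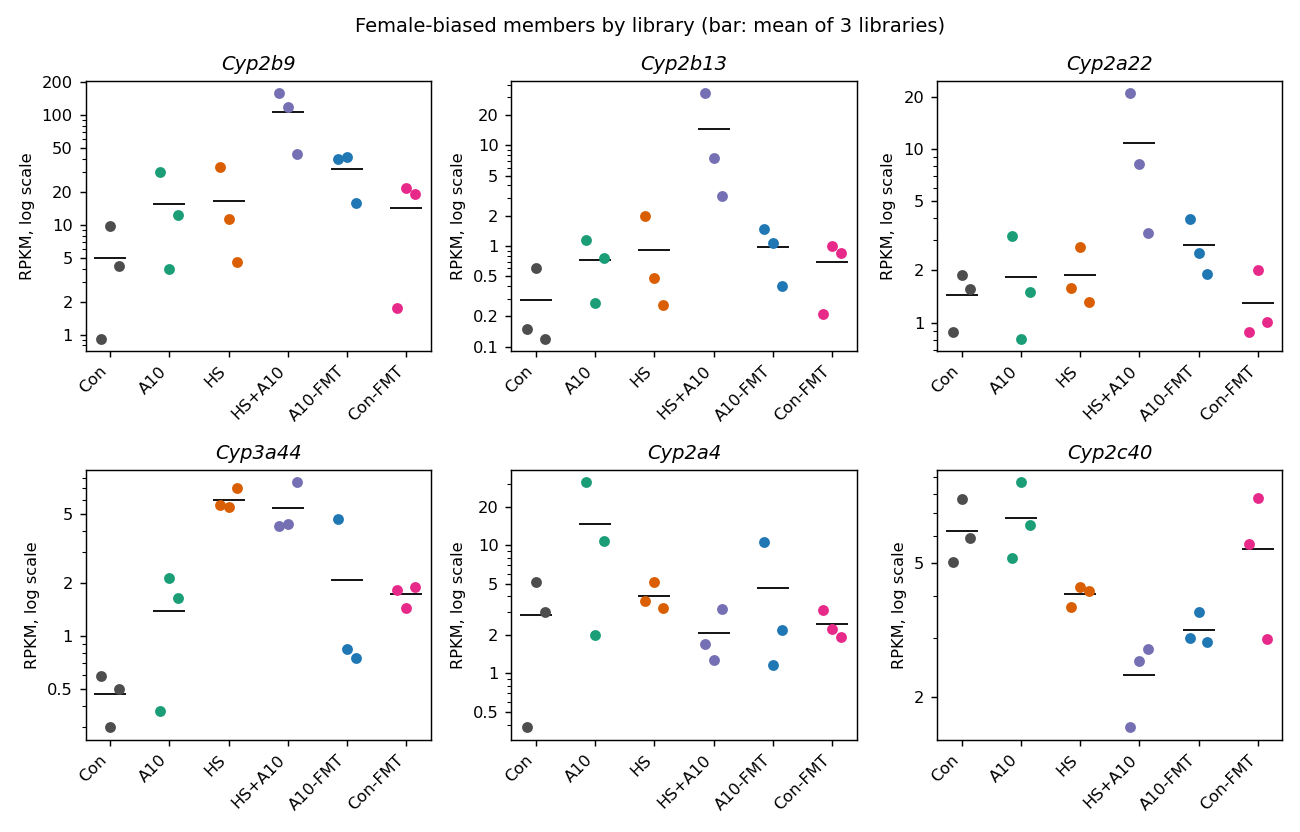
Points give the RPKM, on log axes, of the female-biased members Cyp2b9, Cyp2b13, Cyp2a22, Cyp3a44, Cyp2a4 and Cyp2c40 in each library of the 6 groups, with bars at the group means. Cyp2b9, Cyp2b13 and Cyp2a22 are highest in HS+A10, Cyp3a44 in HS and HS+A10, and Cyp2c40 is lowest in HS+A10, so the genes of this list do not share 1 pattern.

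Of 9 members known as female-biased in mouse liver, 6 were tested. In HS+A10 against A10, 4 rose (Cyp2b9, Cyp2b13, Cyp2a22 and Cyp3a44) and 1 fell (Cyp2c40), with a median change of 1.66. Of all tested genes 20.9% were called there, 13.6% higher and 7.28% lower. Against HS, 2 rose in HS+A10 (Cyp2b13 and Cyp2a22), where 2.95% of all tested genes rose. Cyp3a44 alone fell in each FMT group against HS, where 21% of all tested genes fell in A10-FMT and 19% in Con-FMT. Cyp2g1, Cyp2c69 and Cyp3a16 were under the filter, at no more than 1.08, 0.34 and 0.20 RPKM in any library.

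Among genes outside the P450 families 1 to 3 that are known as male-biased, Mup20 fell by 2.03 in HS+A10 against HS (adjusted p = 0.00705), and Cyp4a12a and Hsd3b5 fell in HS against Con (-0.84 and -1.26). Elovl3 fell by 1.75 and Hsd3b5 rose by 1.46 in A10-FMT against HS, and Hsd3b5 rose by 1.08 in Con-FMT against HS. The call of Elovl3 in A10-FMT against HS was lost with any 1 of its 6 libraries left out (adjusted p up to 0.187). That of Hsd3b5 in HS was lost without Con 2, Con 3, HS 1 or HS 2 (up to 0.0746). In Con-FMT against HS it was lost without HS 1, HS 2, Con-FMT 1 or Con-FMT 2 (up to 0.124). Against Con, 2 fell and 0 rose in each FMT group (7.62% of all tested genes fell in A10-FMT and 11.5% in Con-FMT). These were Cyp4a12a (-0.85 and -0.86) and Elovl3 (-2.94 and -2.67), all kept with each library left out. Without the 3 libraries that stood apart Elovl3 in Con-FMT had an adjusted p of 0.084. In HS+A10 against A10, Cyp4a12a alone fell, by 0.73, lost without HS+A10 1 (0.0523), and 0 rose (7.28% of genes fell). Over the 6 groups 5 of 6 male-biased genes were called, beside 56.1% of all tested genes. Of 4 female-biased ones only Cyp17a1 was tested and it was not called. Cyp2d9, the male-biased steroid hydroxylase among the members, was higher in HS+A10 than in A10 and is described with the Cyp2d genes.

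The Cyp2a members, which hydroxylate coumarin, nicotine, steroids and bile acids, had 2 of 4 tested genes called in A10-FMT against Con-FMT. Cyp2a5 and Cyp2a12 were higher there, where 6.72% of all genes were called higher, and Cyp2a4 and Cyp2a22 did not pass the test, with a median of 1.26 over the 4 beside -0.03 over all tested genes. Cyp2a5, the coumarin hydroxylase and a known target of the clock factor DBP, was 197, 137 and 268 RPKM in A10-FMT, while Con-FMT held 17.7, 35.9 and 41.3. It was 42.4, 152 and 100 in Con, 73.5, 36.4 and 45.9 in A10, 22.1, 90.0 and 108 in HS and 147, 30.7 and 74.7 in HS+A10.

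Every A10-FMT library of Cyp2a5 lay above every Con-FMT and HS library, and the A10-FMT range overlapped with those of Con and HS+A10. The difference between A10-FMT and Con-FMT was 2.66 (SE 0.63, adjusted p = 0.00875, at most 0.0391 with a library left out). It was 1.67 between A10-FMT and HS, which did not pass the test (SE 0.63, interval 0.33 to 3.00, adjusted p = 0.0654, from 0.0535 to 0.247 with a library left out). Dbp itself, at 0.36 to 3.41 RPKM in Con, A10 and HS, was 48.8 to 98.8 in A10-FMT, 51.8 to 55.5 in Con-FMT and 47.3 to 97.5 in HS+A10. The time of day of collection is not given in the sources used here, and the part of either in the Cyp2a5 levels was not tested.

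Cyp2a12, a steroid and bile acid hydroxylase, was 300.45, 307 and 264 RPKM in A10-FMT, while Con-FMT held 65.0, 138 and 63.4. It was 203, 326 and 279 in Con and 96.3, 394 and 282 in HS. A10-FMT exceeded Con-FMT by 1.79 (SE 0.43, adjusted p = 0.00897, at most 0.0364, but 0.0621 without the 3 libraries that stood apart). Con-FMT lay below Con by -1.66 (0.00975, at most 0.0405, but 0.115 without the 3 libraries that stood apart) and below HS by -1.40 (0.0266). The last, where the libraries overlapped, was lost without HS 2, HS 3, Con-FMT 1 or Con-FMT 3 (up to 0.123).

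Cyp2a22, female-biased, was 20.9, 8.21 and 3.30 RPKM in HS+A10 against 1.58, 2.74 and 1.32 in HS and 3.16, 0.81 and 1.5 in A10. It rose by 1.76 against HS (adjusted p = 0.03, lost without HS 2, HS 3, HS+A10 1 or HS+A10 2, up to 0.126). Against A10 the rise was 1.84 (0.00922, at most 0.0496, but lost without the 3 libraries that stood apart). Cyp2a4, a female-biased testosterone hydroxylase and near-copy of Cyp2a5, was called in no comparison and ranged widely within groups, from 1.99 to 31.1 RPKM in A10 and from 0.38 to 5.21 in Con.

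Of the 7 tested Cyp2d members, which oxidize steroids and many drugs, 2 rose in A10-FMT against HS and 2 in Con-FMT against Con. Over all tested genes 2.09% and 14.4% rose in these comparisons. In HS against Con, HS+A10 against HS, A10 against Con and A10-FMT against Con-FMT limma called 0 of the 7. An unadjusted p under 0.05 was reached there by 0, 3, 1 and 0. Of all tested genes 17.7%, 7.32%, 0.0686% and 18.8% were called in the same order. Their changes in HS against Con lay between -0.29 and 0.24. The abundant Cyp2d10, Cyp2d26 and Cyp2d22, at 18-library means of 637, 488 and 144 RPKM, were called in no comparison.

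Cyp2d9, a testosterone hydroxylase, was 640.05, 836 and 760.2 RPKM in Con, 917, 747 and 801 in A10 and 851, 886 and 893 in HS. It was 1181, 1196 and 1101 in HS+A10, 1363, 1102 and 1017 in A10-FMT, while Con-FMT held 1110.2, 909 and 1031. Its libraries in HS+A10, A10-FMT and Con-FMT lay above all HS and Con libraries. It rose by 0.64 in A10-FMT against Con (adjusted p = 0.00358, at most 0.0194).

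Cyp2d9 also rose by 0.45 in Con-FMT against Con (0.014, lost without Con 1 or Con-FMT 1, up to 0.0655), by 0.50 in HS+A10 against A10 (0.00985, lost without A10 2, 0.0519) and by 0.39 in A10-FMT against HS (0.0319). The last was lost without any HS library, A10-FMT 1 or A10-FMT 2 (up to 0.11).

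Cyp2d40 was 86.0, 72.6 and 69.4 RPKM in HS, 109.6, 129 and 127 in A10-FMT, while Con-FMT held 113, 125 and 139, without overlap. It rose by 0.68 in A10-FMT (SE 0.14, adjusted p = 0.00427, at most 0.0211) and by 0.72 in Con-FMT (0.00207, at most 0.0099) against HS. Con-FMT lay above Con by 0.43 (0.031), lost without Con 1, Con 3, Con-FMT 2 or Con-FMT 3 (up to 0.109). HS+A10, at 125, 116 and 80.7 RPKM, was not called against HS.

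Of the members outside these subfamilies other than Cyp2e1, Cyp2r1 was called most often, lower in 5 comparisons. It encodes a vitamin D hydroxylase of the liver. It was 4.88, 5.88 and 5.75 RPKM in Con, 7.04, 5.99 and 6.26 in A10 and 1.79, 3.23 and 3.30 in HS. It was 0.78, 1.56 and 2.03 in HS+A10, 1.24, 2.35 and 2.24 in A10-FMT, while Con-FMT held 1.27, 1.37 and 1.76. All libraries of the 4 groups with the diet and STZ lay below all Con and A10 libraries.

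Cyp2r1 fell by 0.81 in HS against Con (adjusted p = 0.0145, lost without HS 1, 0.0516), by 1.63 in HS+A10 against A10 (0.000109), by 1.16 in A10-FMT against Con (0.0017) and by 1.40 in Con-FMT against Con (0.000173). These last 3 remained with each library left out. Con-FMT lay below HS by -0.59 (0.0441), lost without HS 2, HS 3, Con-FMT 1 or Con-FMT 2 (up to 0.143).

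Cyp2u1, a fatty acid hydroxylase, differed between the FMT groups. It was 17.8, 14.5 and 14.9 RPKM in A10-FMT, while Con-FMT held 7.37, 6.79 and 7.28, with 10.9, 8.46 and 14.1 in HS and 10.4, 15 and 12.1 in Con. A10-FMT exceeded Con-FMT by 1.03 (SE 0.16, adjusted p = 0.000622, at most 0.00385). Con-FMT fell against Con by 0.72 (0.00436, at most 0.024) and against HS by 0.55 (0.0218, lost without HS 1, HS 3 or Con-FMT 2, up to 0.1). A10-FMT exceeded HS by 0.48 (0.0423), lost without HS 1, HS 2 or any A10-FMT library (up to 0.183).

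Among the Cyp2j genes, which epoxidize arachidonic acid, Cyp2j9 was 4.43, 2.80 and 2.77 RPKM in Con-FMT and 5.92, 6.65 and 6.46 in Con. It fell by 0.78 in Con-FMT against Con (adjusted p = 0.00558, at most 0.0252, but 0.0835 without the 3 libraries that stood apart). Against HS the fall was 0.68 (0.0144, lost without HS 1 or Con-FMT 2, up to 0.0581). A10-FMT exceeded Con-FMT by 0.64 (0.0247, lost without A10-FMT 2, Con-FMT 2 or Con-FMT 3, up to 0.122). Cyp2j5, at 178 to 260 RPKM in all libraries, fell by 0.32 in A10-FMT (0.0296) and by 0.28 in Con-FMT (0.0346) against Con. Both calls were lost without Con 2, Con 3 or replicate 2 or 3 of the FMT group (up to 0.11 and 0.135). Cyp2j6, at 18.2 to 24.8 RPKM, was called nowhere.

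Cyp1a2, the AHR target that oxidizes caffeine and aromatic amines, was 376, 428 and 407 RPKM in Con and 203, 285 and 207 in Con-FMT. It was 327, 378 and 345 in A10 and 218, 247 and 389 in HS. HS+A10 held 237, 185 and 285 RPKM and A10-FMT 238, 258 and 352, so low levels were not particular to Con-FMT. It fell by 0.81 in Con-FMT against Con (SE 0.21, adjusted p = 0.0103, at most 0.0429, but 0.108 without the 3 libraries that stood apart). Cyp1a1 and Cyp1b1, the other AHR targets of family 1, were under the filter, at no more than 0.56 and 0.36 RPKM. Cyp2f2, which oxidizes naphthalene, followed Cyp2e1 and Cyp3a11 in abundance at a mean of 1233 RPKM. It fell by 0.48 in HS+A10 against A10 (0.0231) and by 0.43 in Con-FMT against Con (0.0339). The first was lost without A10 2, A10 3 or any HS+A10 library (up to 0.081), and the second without Con 2, Con 3 or any Con-FMT library (up to 0.105).

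The regulators of these genes also differed between the groups. Of 20 tested regulators out of a list of 22, 15 were called over the 6 groups, beside 56.1% of all tested genes. By comparison with HS, 6 rose and 1 fell in HS+A10 (over all tested genes 2.95% rose and 4.37% fell), and 6 rose and 1 fell in A10-FMT (2.09% and 21%). In Con-FMT against HS 4 rose and 3 fell (4.61% and 19%), and in HS against Con 3 rose and 0 fell (15.9% and 1.87%). Those 3 were Nr1i2, Nfe2l2 and Rxra, the last by 0.35 (adjusted p = 0.00521, at most 0.0203 with a library left out).

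Nr1i3, which encodes CAR, was 32.3, 61.1 and 47.2 RPKM in Con and 66.3, 53.5 and 41.0 in HS, against 124, 104 and 91.6 in HS+A10 and 103, 86.6 and 67.2 in A10-FMT. It rose by 0.99 in HS+A10 (adjusted p = 0.0205) and by 0.67 in A10-FMT (0.0481) against HS, and was 57.9, 43.9 and 66.7 RPKM in Con-FMT. Both calls were lost without HS 2, HS 3 or replicate 1 or 2 of the other group (adjusted p up to 0.0978 and 0.176). Nr1i2, which encodes PXR, rose by 0.31 in HS against Con (0.0434) and by 0.40 in Con-FMT against Con (0.00933). The first was lost without Con 1, Con 3, HS 1 or HS 2 (up to 0.192), and the second had an adjusted p of 0.0634 without the 3 libraries that stood apart. Any link between these receptors and their target genes was not tested. Ahr, at 3.14 to 6.62 RPKM, was called in no comparison.

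The clock output factors Dbp, Tef and Hlf rose and Nfil3, which opposes them at the D-box, fell in HS+A10 and in A10-FMT against HS. In HS+A10 the changes were 4.56 for Dbp, 1.77 for Tef, 0.79 for Hlf and -1.47 for Nfil3, and in A10-FMT they were 4.81, 1.89, 0.74 and -1.19. In Con-FMT against HS Dbp rose by 4.34 and Tef by 1.56, while Hlf and Nfil3 were not called. Dbp was the 1 gene of the whole table called for the interaction in the main fit (3.92, adjusted p = 0.00978). Without Con 3, A10 3 and Con-FMT 3 the interaction called 0 genes. It called 4 genes with a pseudocount of 0.1 and 5 with scaling without the 10 most abundant genes. Ppara, which encodes the fatty acid receptor, and Nr3c1, which encodes the glucocorticoid receptor, rose in the same comparisons as Nr1i3, by 1.07 and 0.36 in HS+A10 and by 0.70 and 0.27 in A10-FMT. In HS+A10 the calls of Nfil3 and Ppara were lost without HS+A10 1 (adjusted p of 0.0539 and 0.0521). In A10-FMT the call of Nr3c1 was lost without A10-FMT 2 (0.054) and that of Ppara without HS 2, HS 3 or any A10-FMT library (up to 0.0937).

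In Con-FMT against HS other regulators were called beside Dbp and Tef. Hnf4a, the master regulator of hepatocyte genes, was 177, 178 and 197 RPKM in Con-FMT and 118, 140 and 126 in HS, a rise of 0.53 (adjusted p = 0.00212). Cebpb, a factor of the acute phase, rose by 1.5 (0.000927). Stat5a and Stat5b, which carry the growth hormone signal, fell by 0.87 and 0.49 (0.00227 and 0.00918). Nfe2l2, which encodes the oxidative stress factor NRF2, fell by 0.43 from a level raised in HS. Nfe2l2 rose by 0.78 in HS against Con (0.000397, at most 0.003 with a library left out). It lay above Con by 0.48 in A10-FMT (0.00684) and by 0.35 in Con-FMT (0.0229). The last was lost without Con 1, Con 3, Con-FMT 2 or Con-FMT 3 (up to 0.0778). HS+A10 exceeded A10 by 0.72 for Nfe2l2 (0.00032). Con-FMT was higher than A10-FMT for Hnf4a and Cebpb and lower for Stat5a (difference of A10-FMT from Con-FMT -0.70, -0.84 and 0.69), and the call of Cebpb was lost there without A10-FMT 1, A10-FMT 2, Con-FMT 2 or Con-FMT 3 (adjusted p up to 0.118). Bcl6, a repressor of female-biased genes in male liver, rose by 1.15 in HS+A10 against A10 (0.0377, lost without any A10 library, HS+A10 2 or HS+A10 3, up to 0.162), and Cux2, a female-specific factor, was at most 0.13 RPKM in any library.

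Among the 6 genes that supply electrons and heme, Por, the reductase shared by all these enzymes, was 37.6, 43.6 and 40.9 RPKM in Con and 46.4, 44.3 and 45.4 in A10. It was 67.4, 99.4 and 86.8 in HS, 213, 92.2 and 146 in HS+A10, 148, 121 and 102 in A10-FMT, while Con-FMT held 131, 126 and 277, so that every library of the diet and STZ groups lay above every Con and A10 library. Por rose by 1.02 in HS against Con (adjusted p = 0.0262) and by 0.98 in Con-FMT against HS (0.0226). That change was 0.62 without Con-FMT 3, the library with the acinar markers, and the call was lost without it or without HS 1 (adjusted p up to 0.0921). The rise in HS was lost without Con 1, Con 3, HS 2 or HS 3 (up to 0.0882). Over the 6 groups 5 of the 6 genes were called, beside 56.1% of all tested genes.

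Alas1, the rate-limiting enzyme of heme synthesis in liver, rose by 1.67 in A10-FMT, by 2.18 in Con-FMT (both against Con) and by 1.82 in HS+A10 against A10. Cyb5b, a mitochondrial cytochrome b5, fell in the same 3 comparisons (-0.89, -1.23 and -1.03). Cyb5a, the cytochrome b5 of the endoplasmic reticulum, rose by 0.53 in HS+A10 against A10, and Cyb5r3, its reductase, fell there by 0.69 and in Con-FMT against Con by 0.48. In A10-FMT the call of Alas1 was lost without Con 1, Con 3, A10-FMT 1 or A10-FMT 3 (adjusted p up to 0.162) and that of Cyb5b without Con 2, Con 3, A10-FMT 1 or A10-FMT 3 (up to 0.0716). In HS+A10 that of Alas1 was lost without A10 1 or HS+A10 1 (up to 0.0936) and that of Cyb5a without A10 2, A10 3 or HS+A10 1 (up to 0.0781). In Con-FMT that of Cyb5r3 was lost without Con 2, Con 3, Con-FMT 2 or Con-FMT 3 (up to 0.128).

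**Figure D5:**
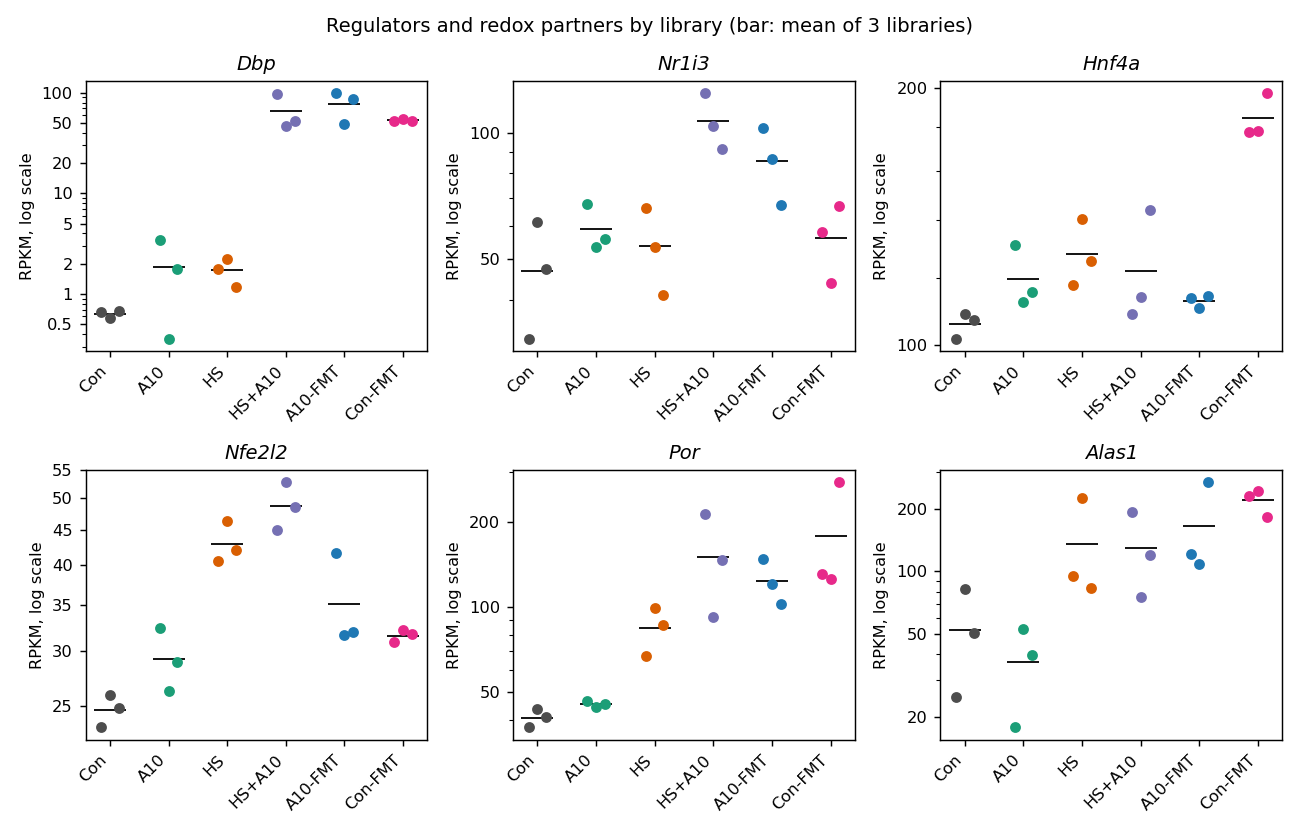
Points give the RPKM, on log axes, of the regulators Dbp, Nr1i3, Hnf4a and Nfe2l2, the electron donor Por and the heme synthesis gene Alas1 in each library of the 6 groups, with bars at the group means. Dbp lies at 0.36 to 3.41 RPKM in Con, A10 and HS and at 47.3 to 98.8 RPKM in HS+A10, A10-FMT and Con-FMT, and Hnf4a is highest in Con-FMT.

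The other 19 members had means under 1 RPKM and were not tested. They were 2 Cyp2b, 4 Cyp2c, 1 Cyp2d, 4 Cyp2j and 2 Cyp3a members, together with Cyp1a1, Cyp1b1, Cyp2g1, Cyp2s1, Cyp2t4 and Cyp2w1. Cyp2b23 was listed at 0 in every library. Of the 38 tested members 27 were called in at least 1 of the 9 comparisons and 11 in none. Of the 77 calls of a member in a comparison, 39 remained with each library left out in turn.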

How the data were processed

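RNA-seq of mouse liver was analysed from 1 table of 19057 genes by 18 libraries. The authors prepared poly(A) mRNA libraries, sequenced them on an Illumina instrument, used SOAPaligner against reference genes and deposited RPKM values with 2 decimals. The submitters' processing notes name Bowtie 0.12.2 and mm10, and which of the aligners made the table cannot be told apart. Read counts were not used here, so no count model or counting interval was applied, and near-zero values are rough.

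Genes averaging 1 RPKM or more over all libraries were kept on the log2(RPKM + 1) scale, and limma 3.58.1 in R 4.3.3 was run on all 18 libraries, with a term for each group and the variance modelled by expression level. Tests were two-sided and p-values were adjusted by Benjamini-Hochberg over all 10204 tested genes. An exact permutation test of 3 against 3 libraries cannot go below p = 0.1. The study's own tests were DEGseq-based with another threshold, which was run as an alternative. Among the listed symbols, 26 had been turned into dates, and 3 symbols occurred more than once. None of them was a member.

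The members and gene lists were chosen with earlier results of these data known. Genes were named when they were among the 4 most abundant of a large subfamily, had a mean of at least 10 RPKM in another subfamily, were called in a comparison, or belonged to a role list (receptor targets, sex-biased, bile acid, clock and vitamin D genes, regulators and redox partners). Subfamily sums are descriptions without a test. Positions are from GENCODE and promoters from RefSeq for GRCm38, and sequences were handled with Biopython 1.88 in Python 3.11.15. Figures were drawn with matplotlib 3.10.9. Alternatives covered scaling, filter, pseudocount, variance trend, the libraries fitted, a replicate block and leaving out each library, the last extended after seeing the data to the regulators, redox partners and sex-biased genes outside the members.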

Additional observations from a re-analysis of the deposited data

How the results depend on the processing

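Of 77 calls of a member in a comparison, 39 remained with each library left out in turn, 10 remained under every alternative run on them and 0 reversed. Without Con 3, A10 3 and Con-FMT 3, 35 calls were kept and 30 lost in the comparisons that use Con, A10 or Con-FMT. The calls of HS+A10 against HS and A10-FMT against HS were not in that count. There the members called without these libraries went from 5 to 2 and from 7 to 5. In limma the number of members called in HS+A10 against HS, 5 in all, was 3 with no filter, and that in Con-FMT against HS, 8 in all, was 5 with quantile normalization. With only the 2 groups compared in the fit, the counts were 3 in HS against Con, 2 in A10 against Con, 0 in HS+A10 against HS, 4 in A10-FMT against HS and 3 in Con-FMT against HS. With only the 12 libraries of Con, HS and the FMT groups, HS against Con had 5. At the study's threshold (adjusted p of 0.001 and a log2 change of 1) the counts were 0 in HS against Con, A10 against Con, HS+A10 against HS and A10-FMT against HS, 1 in Con-FMT against HS, A10-FMT against Con-FMT and A10-FMT against Con, 3 in HS+A10 against A10 and 4 in Con-FMT against Con. Without the 3 libraries that stood apart, chosen after seeing the data, they were 4 in HS against Con, 0 in A10 against Con, 4 in Con-FMT against HS, 9 in HS+A10 against A10 and 6 in Con-FMT against Con. Some of these alternatives used fewer libraries. The cause of these differences was not tested.

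With 1 library left out, the counts ranged from 6 to 9 in HS against Con, 0 to 1 in A10 against Con, 1 to 12 in HS+A10 against HS, 4 to 9 in A10-FMT against HS, 5 to 10 in Con-FMT against HS, 4 to 7 in A10-FMT against Con-FMT, 11 to 14 in HS+A10 against A10, 8 to 13 in A10-FMT against Con and 11 to 15 in Con-FMT against Con. Same-numbered libraries of different groups correlated at a median r of 0.0067 (-0.1258 to 0.2624 over 45 pairs) in their deviations from group means. For other-numbered libraries the median r was -0.0073 (-0.3365 to 0.2286 over 90 pairs). A median over all pairs cannot show whether the libraries of some groups were paired. With the replicate number as a block, the counts were 8, 1, 6, 8, 8, 6, 16, 12 and 16 in the same order.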
